A study of Mus musculus with 36 samples.

Results

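The 10 genes described here encode the cyclins and cyclin-dependent kinases (CDKs) that drive the mammalian cell cycle: the A and B cyclins *Ccna2*, *Ccnb1* and *Ccnb2* with their kinase *Cdk1*, the D cyclins *Ccnd1*, *Ccnd2* and *Ccnd3* with their kinase *Cdk4*, and the E cyclins *Ccne1* and *Ccne2*. They were taken from the array annotation by symbol or gene identifier with every probe set that carries 1 of them, which gave 24 of the 45101 probe sets and 10 of the 20701 annotated genes. The rule itself uses no measured value. Hearts of OF1 mice were profiled on Affymetrix whole-genome mouse arrays, a 1-colour platform, at 12 stages with 3 arrays each (36 in all). The stages were 10 embryonic days, E10.5 through E19.5, and 2 mature ages, called young adult (10 weeks) and old adult (14 months in the series description, 10 months in the paper). The labels name no transgene or treatment, and stage, age and sex are the contrasts. At E10.5 and E11.5 all 3 arrays hold both sexes, and from E12.5 on there is a female, a male and a mixed array. Per the paper's methods a single-sex embryonic array stands for 1 pup, and how many hearts a mixed sample holds was not given in the sources used here.

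Cyclins are regulatory subunits without which a CDK has no activity, and most of them are made and destroyed once in each cycle. D cyclins bind CDK4 or CDK6 in G1 and start phosphorylation of the retinoblastoma protein, E cyclins complete this step with CDK2, cyclin A2 serves DNA replication and entry into mitosis, and the B cyclins with CDK1 drive mitosis itself. Cardiomyocytes divide in the embryo and largely leave the cell cycle after birth, whereas endothelial cells, fibroblasts and blood cells of the heart can go on dividing.

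Values are log2 intensities after robust multi-array averaging by the authors. A difference of 1 is a 2-fold difference, and the levels of different probe sets cannot be set against each other. The tissue matched its label: all 9 cardiomyocyte markers measured were above a mean of 5 in every one of E10.5, E19.5, young and old adult, no skeletal muscle marker reached 5 at any stage, and of 8 liver markers *Ahsg* alone did, at 5.03 in young adult, although the extraction protocol in the labels names liver. Of 7 lung and thymus markers *Sftpb* alone passed 5, at 5.06 in E17.5, 5.03 in E19.5 and 5.18 in young adult hearts. Markers of other cell types moved with stage. The summed intensity of 11 erythroid markers lay between 19400 and 25900 on the E10.5 arrays and between 177 and 252 in young adult. The embryonic globins *Hbb-y* (13.60 to 3.10), *Hbb-bh1* (12.99 to 3.34) and *Hba-x* (11.01 to 3.74) carried this sum, whereas *Alas2*, the first enzyme of erythroid haem synthesis, read 5.68 and 6.34. The sum of 9 leukocyte markers lay between 125 and 148 at E10.5 and between 1570 and 1860 in young adult. The hybridization controls, bacterial transcripts added to every labelled sample, averaged 9.90 ± 0.39 (SD, n = 3) on the E10.5 arrays, 11.16 ± 0.21 on those of E19.5 and 12.17 ± 0.22 on those of young adult. The part of these shifts in the stage differences was not tested beyond the fit with the control level as a covariate, whose values are given where it ended a call. In whole hearts, fewer dividing cells and less transcript per cell cannot be told apart. Where 1 of the groups compared lies under 5, the log2 difference is taken against intensities near background and is read here as a minimum.

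RefSeq promoters (GRCm38.p6, 250 bases before to 50 after the start of the gene) were found for 6 of the 10 members, with 7 promoters between them. *Ccna2*, *Ccnd1*, *Ccnd2* and *Ccne2* had no entry. The 3 printed here belong to the B cyclin and the kinase with the steepest falls and to *Cdk4*, which fell along another course. Capitals mark the cell cycle homology region (CHR) core TTTGAA, the CCAAT box (ATTGG where it lies on the opposite strand), the E2F sites TTTGGCGC, TTTCCCGC, TTTCGCGC and TTTGCCGC, and the E-box CACGTG, all searched on both strands. Positions count from the start of the gene, with the first transcribed base as 1.
Ccnb2, chr9:70421505-70421804, minus strand: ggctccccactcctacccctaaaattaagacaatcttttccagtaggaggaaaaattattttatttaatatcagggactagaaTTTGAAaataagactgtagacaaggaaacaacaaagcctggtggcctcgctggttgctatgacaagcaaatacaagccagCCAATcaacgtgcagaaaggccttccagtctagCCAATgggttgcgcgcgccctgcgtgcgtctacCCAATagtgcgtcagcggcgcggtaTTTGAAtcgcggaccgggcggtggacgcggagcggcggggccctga
Cdk1, chr10:69352863-69353162, minus strand: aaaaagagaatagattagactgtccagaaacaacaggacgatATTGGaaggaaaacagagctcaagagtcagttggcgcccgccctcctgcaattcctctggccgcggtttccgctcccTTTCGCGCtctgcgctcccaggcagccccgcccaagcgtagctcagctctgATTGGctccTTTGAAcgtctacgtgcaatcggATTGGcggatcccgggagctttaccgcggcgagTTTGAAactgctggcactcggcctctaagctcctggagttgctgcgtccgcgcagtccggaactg
Cdk4, chr10:127063285-127063584, plus strand: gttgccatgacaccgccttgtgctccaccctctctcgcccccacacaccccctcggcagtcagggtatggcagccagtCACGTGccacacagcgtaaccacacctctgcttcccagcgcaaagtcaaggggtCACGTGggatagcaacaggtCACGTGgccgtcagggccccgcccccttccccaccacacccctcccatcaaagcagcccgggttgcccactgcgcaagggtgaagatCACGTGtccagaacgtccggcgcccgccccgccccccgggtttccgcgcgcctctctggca

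The *Ccnb2* promoter holds 2 CHR cores, at -167 and 5, and 3 CCAAT boxes at -87, -54 and -21. That of *Cdk1* holds 2 CHR cores at -71 and -15, 3 CCAAT boxes on the opposite strand at -208, -80 and -48, and 1 E2F site at -131. A CHR core occurred in 17.9% of the 32851 promoters in the table, 3 or more CCAAT boxes in 3.37%, and both together in 0.545%. The E2F sites occurred in 2.26%. In the *Cdk4* promoter none of these was found, and the letters marked are 4 E-boxes at -172, -118, -98 and -11. The E-box, a sequence bound by MYC and related factors, was searched after the other motifs had been looked up and was chosen for *Cdk4*. It occurred in 7.15% of all promoters, and 4 or more copies in 0.0244%. *Ccnb1* has 2 CCAAT boxes, at -99 and -67, 1 of the 2 *Ccnd3* promoters has 1 at -108, and the *Ccne1* promoter has none of the motifs. These matches describe letters, not binding.

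*Ccna2*, *Ccnb2* and *Cdk1* declined through embryonic development and were at low intensity in the mature heart. No stage between E19.5 and young adult was sampled, so the rate of the later fall is not known. *Cdk1*, the kinase that triggers mitosis, read 9.13, 8.99 and 8.66 on the 3 E10.5 arrays (probe set 1448314_at). It read 7.21, 7.12 and 6.81 at E19.5, 4.31, 4.50 and 3.75 in young adult and 4.24, 3.97 and 3.88 in old adult. Every embryonic array was above every mature array, and the mature means, 4.19 and 4.03, lay under the limit of 5 used for expression. E10.5 exceeded young adult by at least 4.74 (SE 0.22, adjusted p = 1.5e-17). E10.5 exceeded E19.5 by 1.88 (SE 0.22, adjusted p = 6.5e-08), both above the limit, and E19.5 exceeded young adult by at least 2.86 (SE 0.22, adjusted p = 1.4e-11).

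*Ccna2*, which encodes the cyclin of S phase and early mitosis, read 8.45, 8.70 and 8.11 at E10.5 (1417910_at). At E19.5 it read 7.23, 7.28 and 6.66, in young adult 3.84, 3.91 and 4.003, and in old adult 3.27, 3.53 and 3.30. The embryonic and mature arrays were again apart, and the 3 old arrays were all below the 3 young ones. The excess over young adult, whose mean of 3.92 lies under the limit, was at least 4.50 (SE 0.21, adjusted p = 6.1e-18) at E10.5 and at least 3.14 (SE 0.21, adjusted p = 2.2e-13) at E19.5. Its other probe set, 1417911_at, fell earlier, with means of 7.57 (E10.5), 5.20 (E19.5) and 4.26 (young adult, under the limit). The difference after E19.5 was thus at least 0.94 (SE 0.28, adjusted p = 0.010).

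*Ccnb2*, 1 of the mitotic B cyclins, read 7.78, 8.05 and 7.02 at E10.5 (1450920_at). The E19.5 arrays read 5.57, 5.42 and 5.24, the young adult arrays 2.61, 3.38 and 2.87 and the old adult arrays 2.85, 3.09 and 3.48. The lowest embryonic array was above the highest mature one, and the young and old arrays overlapped. With a young adult mean of 2.95, under the limit, its differences were at least 4.66 (SE 0.24, adjusted p = 9.6e-17) for E10.5 over young adult and at least 2.46 (SE 0.24, adjusted p = 1.4e-09) for E19.5 over it. With the hybridization control level in the model the latter was 1.91 and missed the 4-fold limit (adjusted p = 3.7e-07). With only the arrays of E19.5 and young adult, the same difference had an adjusted p of 1.1e-05 in limma and missed the limit of 1e-05. E10.5 exceeded E19.5 by 2.21 (SE 0.24), both above the limit of 5. *Ccnb1*, the other B cyclin, is annotated to 1419944_at alone, whose means ran from 3.06 to 4.17 and never reached 5, so it could not be called. Its E10.5 arrays (4.14, 4.11 and 4.23) nevertheless lay above the young adult arrays (3.65, 3.31 and 3.55), with a difference of 0.66 (SE 0.16, adjusted p = 6.5e-04).

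**Figure D1:**
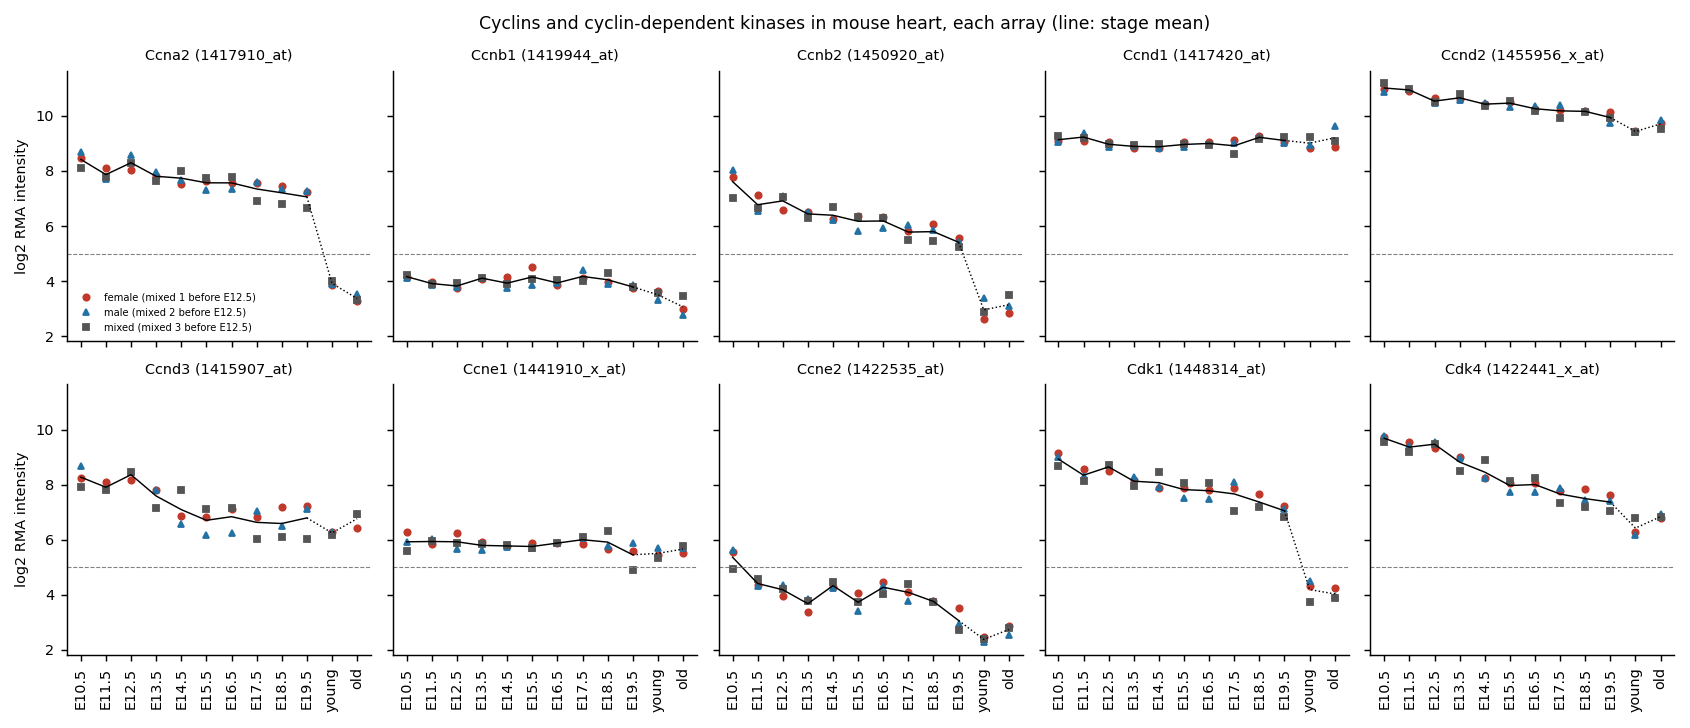
Log2 RMA intensity (y axis) of each member's probe set with the highest mean, by stage (x axis, not to scale in time after E19.5); each point is 1 array, lines join stage means and the dashed line marks the limit of 5. Ccna2, Ccnb2 and Cdk1 drop between E19.5 and young adult (7.06 to 3.92, 5.41 to 2.95 and 7.05 to 4.19), Cdk4 loses most of its level before birth, and Ccnd1 stays between 8.88 and 9.23.

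*Cdk4*, the G1 kinase of the D cyclins, lost most of its level before birth. The E10.5 arrays read 9.74, 9.77 and 9.55 (1422441_x_at), those of E15.5 8.06, 7.72 and 8.12 and those of E19.5 7.62, 7.41 and 7.05. Young adult hearts read 6.28, 6.18 and 6.79 and old adult hearts 6.78, 6.92 and 6.81. Embryonic and young adult arrays did not overlap at any day, whereas young and old did. From E10.5 to E19.5 the fall was 2.32 (SE 0.20, adjusted p = 1e-10), and from E19.5 to young adult 0.94 (SE 0.20, adjusted p = 4.6e-04). The other probe sets of *Cdk4*, 1422439_a_at and 1422440_at, gave E10.5 minus young adult differences of 3.78 and at least 3.42 beside 3.26. The young adult mean of 1422440_at was 4.80, under the limit. With the hybridization control level as covariate the difference on 1422441_x_at was 1.83, under the 4-fold limit (adjusted p = 1.7e-06).

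The D cyclins differed among themselves and among their probe sets. *Ccnd1* was flat on its brightest probe set, 1417420_at, with stage means between 8.88 and 9.23. Both other probe sets dipped in mid-gestation. On 1448698_at the E10.5 arrays read 7.91, 7.86 and 7.64, the E15.5 arrays 6.82, 6.88 and 7.15, the young adult arrays 8.35, 8.28 and 8.04 and the old adult arrays 8.02, 8.96 and 8.52. No E15.5 array reached an E10.5 or a mature one. E15.5 was below young adult by 1.27 there (log2 difference -1.27, SE 0.17, adjusted p = 2.7e-07) and by a log2 difference of -1.07 (SE 0.16, adjusted p = 1.3e-06) on 1417419_at, while 1417420_at gave -0.05 (SE 0.15, adjusted p = 0.82).

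*Ccnd2* was highest at E10.5 on all 7 of its probe sets, of which 1416124_at never reached a mean of 5 (4.61 at E10.5). The brightest, 1455956_x_at, read 10.99, 10.86 and 11.20 at E10.5, 10.13, 9.76 and 9.93 by E19.5, 9.46, 9.43 and 9.42 in young adult and 9.74, 9.86 and 9.53 in old adult. E10.5, E19.5 and young adult did not overlap. Its E10.5 excess over young adult was 1.58 (SE 0.12, adjusted p = 2.9e-12), and the other probe sets gave 1.23 to 2.11. After E19.5 the probe sets parted: 1455956_x_at fell by a further 0.50 (SE 0.12, adjusted p = 0.0022), whereas 1416123_at had a mean of 5.73 at E19.5 and of 6.89 in young adult (log2 E19.5 minus young adult -1.16, SE 0.23, adjusted p = 2.3e-04). The remaining 5 gave between -0.50 and 0.14 and did not pass the test. A suffix _x_at marks probe sets whose probes can also match other transcripts, _s_at and _a_at those shared by several transcripts.

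*Ccnd3* was the most variable member, with a mean within-stage SD of 0.41 on 1415907_at. It read 8.25, 8.66 and 7.90 at E10.5, 6.82, 6.18 and 7.10 at E15.5, 7.24, 7.13 and 6.01 at E19.5, 6.27, 6.29 and 6.18 in young adult and 6.41, 6.95 and 6.93 in old adult. The E10.5 arrays stood above all the others listed, and the E19.5 mixed array lay below the young adult arrays. E10.5 minus young adult was 2.03 (SE 0.33, adjusted p = 5.1e-06), just past both limits. With the hybridization control level in the model it was -0.34 (adjusted p = 0.65), and leaving out 1 array (E10.5 replicate 1 or 2, or any young adult array) raised its adjusted p above 1e-05, to between 3.8e-05 and 1.3e-04. Neither other probe set showed this fall: 1444323_at had means of 4.86 at E10.5, 5.73 at E15.5 and 4.76 in young adult, and 1438805_at stayed under 5.

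**Figure D2:**
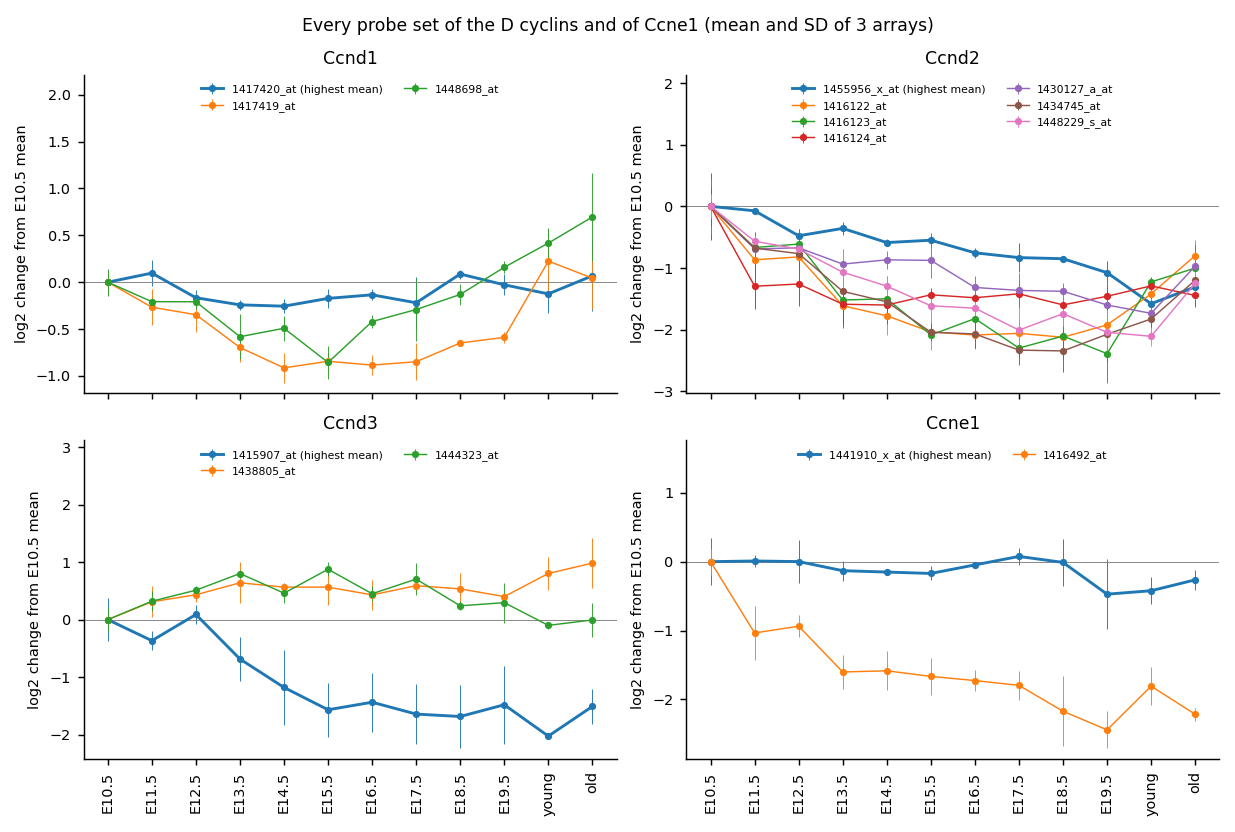
Log2 change from the E10.5 mean (y axis) by stage (x axis) for every probe set of Ccnd1, Ccnd2, Ccnd3 and Ccne1; points are means and bars the SD of 3 arrays, the thick line is the probe set with the highest mean. The brightest probe sets of Ccnd1 and Ccne1 move from their E10.5 mean by at most 0.47 (Ccne1 at E19.5) while 1416492_at of Ccne1 falls by at least 2.44, to a mean under 5.

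Of the E cyclins, which bind CDK2 at the start of S phase, *Ccne2* had a stage mean above 5 at E10.5 alone. Its arrays read 5.54, 5.62 and 4.93 at E10.5 (1422535_at), 4.34, 4.31 and 4.57 at E11.5, 3.53, 2.92 and 2.73 by E19.5, 2.47, 2.27 and 2.39 in young adult and 2.86, 2.54 and 2.81 in old adult. The E10.5 arrays were above all of these. The E10.5 excess was at least 2.99 (SE 0.20, adjusted p = 5.3e-14) over young adult and at least 0.96 (SE 0.20, adjusted p = 0.0081) over E11.5, both of which lie under the limit. *Ccne2* entered the calls below through E10.5 alone and was not called at an expression limit of 6. *Ccne1* was split between its probe sets: 1441910_x_at stayed between 5.45 and 5.998, with an E10.5 minus young adult difference of 0.42 (SE 0.19, adjusted p = 0.055), and 1416492_at read 7.05, 7.07 and 6.73 at E10.5, 4.24, 4.51 and 4.77 by E19.5 and 4.99, 5.46 and 4.98 in young adult. On the latter the 3 stages did not overlap, and E19.5 was the lowest of all 12. The E10.5 excess on it was at least 2.44 (SE 0.22, adjusted p = 1.6e-10) over E19.5, whose mean of 4.51 lies under the limit. Over young adult it was 1.81 (SE 0.22, adjusted p = 1.9e-08).

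Differentially expressed genes (DEGs) were those with an adjusted p under 1e-05, a more than 4-fold difference and 1 or more stage means above 5, and a gene was read from the probe set with the highest mean. At E10.5, 6 of the 10 members were higher than in young adult (*Ccna2*, *Ccnb2*, *Ccnd3*, *Ccne2*, *Cdk1* and *Cdk4*), against 9.40% of the 11317 genes above the expression limit, and none was lower, against 4.82%. *Ccnb1*, under the limit, is counted among the 10. The members' median log2 difference was 2.51 and that of all genes 0.34. The count was 5 at E11.5 (background 7.81%) and also at E12.5 (7.35%), then 4 at E13.5 (6.17%) and likewise E14.5 (5.94%), and 3 at E15.5 (5.32%), E16.5 (4.86%), E17.5 (3.38%), E18.5 (3.28%) and E19.5 (1.87%). The 3 that remained from E15.5 on were *Ccna2*, *Ccnb2* and *Cdk1* at each of these days. No member was lower at E19.5 than in young adult, where 1.44% of genes were. All 3 arrays of E10.5 were above all 3 of young adult for 8 of the 10 members and for 46.9% of genes, and those of E19.5 for 7 members and 30.5% of genes.

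Within the embryo, 3 members were DEGs between E10.5 and E19.5, *Ccnb2*, *Ccne2* and *Cdk4*, all higher at E10.5 (background 2.78%). When each array was centred on the median of its expressed probe sets, these differences were 1.86, 1.96 and 1.98 and none remained past 4-fold. With the hybridization control level as covariate, *Ccnb2* (1.53) and *Cdk4* (1.53) also missed it. At an adjusted p under 0.05 without a fold limit, 7 members were higher at E10.5 than at E15.5 (34.1% of genes): the 6 named for E10.5 and *Ccnd2*, by 0.55 (*Ccnd2*) to 1.72 (*Cdk4*). With that covariate 3 of them did not pass: *Ccna2* was 0.17 (adjusted p = 0.62) in place of 0.85, *Cdk1* 0.51 (adjusted p = 0.14) in place of 1.11 and *Ccnd3* 0.47 (adjusted p = 0.31) in place of 1.57. Between E10.5 and E11.5, *Ccne2* alone was higher (2.23% of genes), and it did not pass without E10.5 replicate 1, E10.5 replicate 2 or E11.5 replicate 2 (adjusted p = 0.082, 0.12 and 0.067), while *Ccnb2* also passed without E11.5 replicate 1 (adjusted p = 0.029) and *Ccna2* and *Ccnb2* without E10.5 replicate 3 (0.047 and 0.0031). Of the 9 daily steps from E10.5 to E19.5, no other passed the test for any member on its brightest probe set, so neighbouring days were mostly not told apart. The share of all genes at those steps is not given here, so this absence is not read as particular to the members. On other probe sets *Ccne1* (1416492_at, 1.04, adjusted p = 0.0083) and *Ccnd2* (1416122_at, 0.87, adjusted p = 0.015) were also higher at E10.5 than at E11.5, and *Ccnd2* fell once more from E12.5 to E13.5 (1416122_at by 0.79, adjusted p = 0.040, and 1416123_at by 0.91, adjusted p = 0.044). On the brightest probe sets the means of *Cdk1* and *Ccna2* went down in 8 of 9 steps, and those of *Cdk4*, *Ccnd2* and *Ccne2* in 7 of 9. Those of *Ccnb2*, *Ccnd3*, *Ccnb1* and *Ccne1* went down in 6 of 9, and that of *Ccnd1* in 5 of 9.

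**Figure D3:**
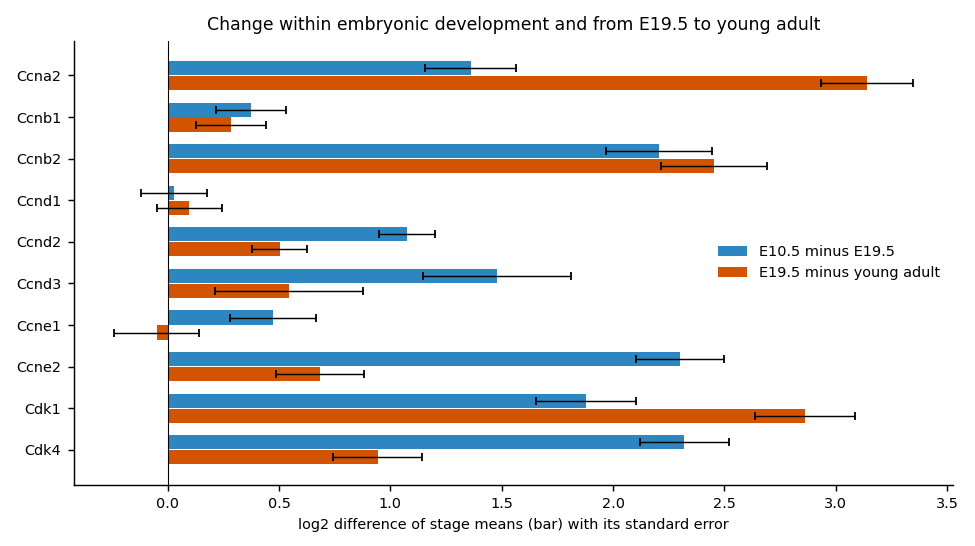
Log2 differences of stage means (x axis, bars, with standard errors) for each member, E10.5 minus E19.5 and E19.5 minus young adult. Bars read the probe set with the highest mean. For Ccna2 and Cdk1 the change after E19.5 (3.14 and 2.86) is larger than that before it (1.36 and 1.88). For Cdk4 and Ccne2 the order is the reverse (0.94 and 0.69 after, 2.32 and 2.30 before). Ccne2 lies under 5 at E19.5 (3.06) and in young adult (2.38), so its change after E19.5 is read near background. The other Ccna2 probe set, 1417911_at, changed more before E19.5 (2.37) than after it (0.94).

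Whether paralogs changed alike was tested on the difference of their log2 values within each array, for 6 pairs in 2 comparisons (E10.5 to E12.5, n = 9, against E17.5 to E19.5, n = 9, and the latter against the 6 mature arrays), by two-sided exact permutation tests adjusted over the 12. *Cdk1* and *Cdk4* fell at different times. *Cdk1* minus *Cdk4* was -0.87 ± 0.14 (SD) in early embryos, -0.15 ± 0.21 in late embryos and -2.52 ± 0.57 in mature hearts. In the first interval *Cdk4* fell more (2.00 against 1.28) and in the second *Cdk1* (3.25 against 0.88). The arrays of the 3 groups did not overlap, and both tests gave the smallest p they can (4.1e-05, adjusted 1.2e-04, and 2e-04, adjusted 4e-04, exact permutation). *Ccnb1* minus *Ccnb2* moved by -1.48 and -1.90, with the same pair of p-values, but the *Ccnb1* probe set is near background throughout. All these tests treat the arrays of a period as exchangeable, although arrays of the same sex label deviated together at some late days.

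Among the D cyclins, *Ccnd1* held while *Ccnd2* and *Ccnd3* fell in the embryo: *Ccnd1* minus *Ccnd2* was -1.72 ± 0.15 early and -1.01 ± 0.24 late, and *Ccnd1* minus *Ccnd3* 0.94 ± 0.44 and 2.41 ± 0.52 (adjusted p = 1.2e-04 for both, exact permutation). Neither pair overlapped between the periods. *Ccnd3* fell more than *Ccnd2* (1.51 against 0.74, adjusted p = 0.0072, exact permutation), and *Ccne2* more than *Ccne1* both within the embryo (1.02 against 0.14, adjusted p = 0.0028, exact permutation) and from late embryo to mature (1.08 against 0.21, adjusted p = 0.0021, exact permutation), although *Ccne2* was under the limit in every stage of the late and mature groups. From late embryo to mature, *Ccnd1* minus *Ccnd2* shifted by -0.55 (adjusted p = 0.0021, exact permutation), whereas *Ccnd1* against *Ccnd3* (-0.19, adjusted p = 0.42) and *Ccnd2* against *Ccnd3* (0.36, adjusted p = 0.15) did not pass. Several of these depend on the probe set: with the probe set of largest variance, *Ccnd2* fell more than *Ccnd3* by 0.33 in the embryo (adjusted p = 0.076, exact permutation), *Ccne1* more than *Ccne2* by 0.46 (adjusted p = 0.027), and *Ccnd1* minus *Ccnd2* shifted by 0.51 toward maturity (adjusted p = 0.014). With the mean of all probe sets of a gene, *Ccnd2* fell more than *Ccnd3* by 0.91 in the embryo (adjusted p = 1.2e-04, exact permutation). The embryonic shift of *Ccnd1* minus *Ccnd3* was then -0.21 (adjusted p = 0.13, exact permutation). For the largest variance and the mean, in this order, *Ccnd2* minus *Ccnd3* shifted by -1.32 and -0.48 toward maturity (adjusted p = 3.4e-04 and 3e-04, exact permutation). *Ccnd1* minus *Ccnd3* shifted by -0.81 and -0.58 (adjusted p = 0.0032 and 0.0064, exact permutation). The early difference between *Ccnd1* and *Ccnd2* and both between *Cdk1* and *Cdk4* kept their direction and passed under every alternative run for the pairs. These covered normalization, probe set choice and leaving out 1 array. Centring cannot change a difference within an array, and no covariate entered the pair tests.

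No member differed between old and young adult at an adjusted p under 0.05 in limma (10.5% of genes did), while 4 had an unadjusted p under 0.05, as had 29.9% of genes. *Ccna2* gave -0.55 (SE 0.21, adjusted p = 0.097) and passed when arrays were centred, quantile normalized once more or given the hybridization control level as covariate (-0.54 to -1.07), but both of its means, 3.92 and 3.37, lie under the limit of 5. In contrast, 2 probe sets of *Ccnd2* other than the brightest were higher in old adult: 1448229_s_at read 7.84, 8.001 and 7.70 in young and 8.60, 9.01 and 8.51 in old adult, a difference of 0.86 (SE 0.19, adjusted p = 0.0052), and 1430127_a_at rose by 0.77 (SE 0.20, adjusted p = 0.018). Between the same ages the summed intensity of 9 endothelial markers lay at 1960 to 2450 in young and 2820 to 4450 in old adult. That of the leukocyte markers lay at 1570 to 1860 and 1630 to 2790, and that of the erythroid markers at 177 to 252 and 197 to 1530. The leukocyte and erythroid ranges overlapped between the ages. The part of these cell types in the differences was not tested. Male and female arrays, compared in the 9 stages after E12.5 that hold 1 of each, gave no member at an adjusted p under 0.05 (0.0619% of genes) and none at an unadjusted p under 0.05 on its brightest probe set (9.24% of genes). The change of the sex difference between mature and embryonic hearts, tested in limma as an interaction, passed for no member (0.884% of genes). Of the brightest probe sets that of *Ccnb2* had the lowest p there (0.67, SE 0.21, unadjusted p = 0.0058, adjusted p = 0.16), and 3 members had an unadjusted p under 0.05, as had 15.5% of genes. The dimmer *Ccna2* probe set 1417911_at gave -0.84 (SE 0.21, adjusted p = 0.080). In young and old adult the means of *Ccnb2* (2.95 and 3.14) and of 1417911_at (4.26 and 3.705) lie under the limit of 5. The mature sex differences of both are thus read near background.

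Other groups of the pathway are described by their counts, and no test compared the lists with each other. The lists were drawn from general knowledge with earlier results of these arrays known, and counts use the DEG rule for E10.5 over young adult, with 9.40% of all genes higher and 4.82% lower. Lists are counted over their genes on the array, and those under the expression limit, which could not be called, were 2 of 6 other cell cycle cyclins and CDKs, 8 of 33 cyclins and CDKs of other roles, 1 of 8 activators, 3 of 10 inhibitors, 1 of 24 ligase genes, 1 of 20 effectors and 0 of 21 proliferation markers. All 21 proliferation markers were higher, with a median of 3.49, from *Bub1* (5.37, SE 0.20) and *Rrm2* (5.01, SE 0.24), which serve the spindle checkpoint and nucleotide synthesis, to *Tyms* (2.39, SE 0.25) and *Aurka* (2.14, SE 0.25). Of these, 7 were still DEGs at E19.5, where 1.87% of all genes were called higher than in young adult. Among 8 CDK activators and binding subunits 4 were higher and none lower: *Cks2* (5.33, SE 0.14) and *Cks1b* (4.70, SE 0.16), small proteins that bind CDKs, and the phosphatases *Cdc25c* (3.06, SE 0.17) and *Cdc25a* (2.83, SE 0.12). At E19.5 *Cks2*, *Cks1b* and *Cdc25c* were still called.

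Of 10 inhibitory kinases and CDK inhibitors, 2 were higher and none lower, with a list median of -0.09: *Cdkn1c* (p57), at 12.32 in E10.5 and 8.13 in young adult hearts (4.19, SE 0.20, adjusted p = 3e-17), and *Cdkn2d* (2.04, SE 0.20). Ubiquitin ligases mark cyclins for destruction, and the list of 24 genes measured holds their subunits, partner enzymes and regulators. Among these, 6 were higher, led by *Ube2c* (5.70, SE 0.33), a partner enzyme, and *Skp2* (3.96, SE 0.18). The lowest of the 6 were *Cdc23* (2.76, SE 0.23) and *Fbxo5* (2.38, SE 0.14), which encodes an inhibitor of such a ligase. None of them was called lower. Of the 20 substrates and effectors 6 were higher, from *E2f8* (3.97, SE 0.26) and *E2f3* (3.76, SE 0.22) to *Tfdp1* (3.02, SE 0.23) and *Lin9* (2.72, SE 0.19), transcription factors and a subunit of the DREAM complex that act on cell cycle genes. None was called lower there either.

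Of 6 cell cycle cyclins and CDKs outside the members none was called, although *Ccnf* (1.81, SE 0.19), *Cdk2* (1.61, SE 0.19) and *Cdk6* (0.99, SE 0.17) were higher at an adjusted p under 0.05, as were 47.2% of all genes. Of 33 cyclins and CDKs of transcription and other roles, 3 were called higher, *Cdk8* (2.53, SE 0.30) and its partner *Ccnc* (2.22, SE 0.27), which sit in the Mediator kinase module, and *Cdk14* (2.13, SE 0.25), and the list median was 0.23. With 3 of 33 this list was near the background of all genes. Against the majority of their lists, and at an adjusted p under 0.05 as for 27.1% of all genes, *Cdk3* (-0.69), *Ccng1* (-1.52), *Cdk10* (-0.37), *Cdkn2c* (-0.37), *Anapc5* (-0.38), *Fbxo31* (-1.07), *Lin37* (-0.40), *Lin52* (-0.49) and *E2f5* (-1.06) were lower at E10.5. So was *Fbxw7* (-1.37, SE 0.17, adjusted p = 2.7e-08), the subunit that recruits cyclin E for destruction.

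**Figure D4:**
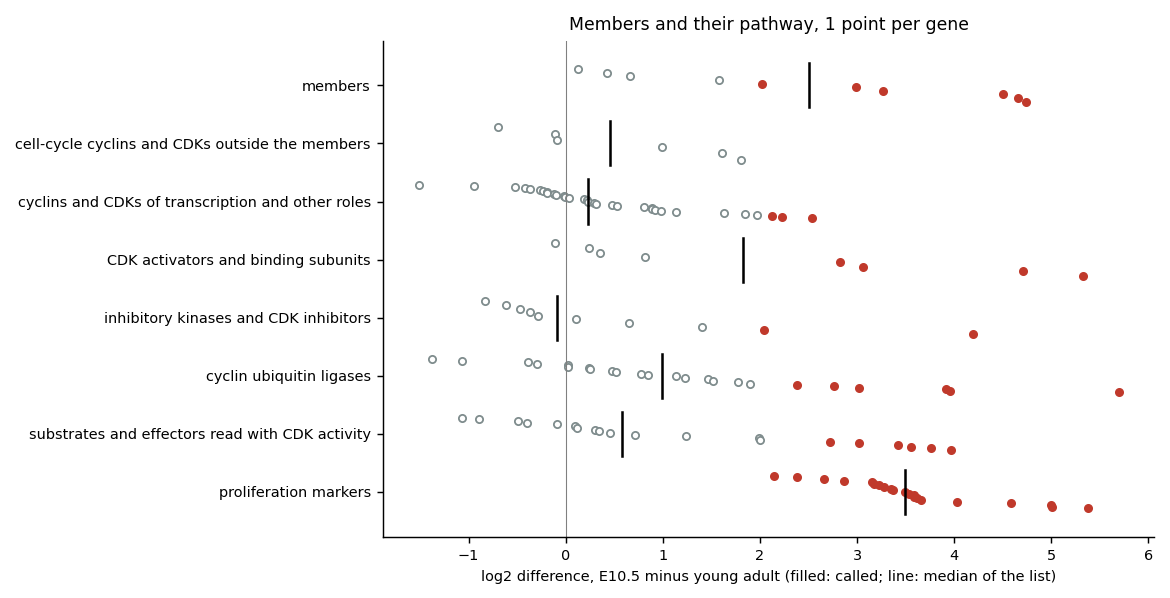
Log2 difference E10.5 minus young adult (x axis) for each gene of the members and of 7 pathway lists (y axis); filled points pass the DEG rule, and vertical lines mark list medians. All 21 proliferation markers lie above 2, while the medians of the inhibitors (-0.09) and of the transcriptional cyclins and CDKs (0.23) lie near 0.

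For the 6 members whose stage means spanned more than 2, the genes with the most similar profile were sought among the 11317 expressed genes, by the root mean square (RMS) difference of centred log2 values over the 36 arrays. *Cdk1* was closest to *Cks1b* (RMS 0.23), *Ccna2* (0.24) and *Cep55* (0.31), and *Ccna2* to *Cdk1* (0.24), *Cep55* (0.28) and *Cip2a* (0.29). *Ccnb2* was closest to *Pclaf* (0.25), *Birc5* (0.28) and *Dbf4* (0.29). The nearest genes of *Cdk4* were *Pgam1* (0.21), *Gfpt1* (0.24) and *Pdlim7* (0.25), those of *Ccnd3* were *Nono* (0.23), *Plp2* (0.24) and *Kif2a* (0.25), and those of *Ccne2* were *Ltv1* (0.36), *Txlng* (0.37) and *Exosc8* (0.37). The profiles of *Cdk1* and *Ccna2* were thus within each other's nearest 3, and no member was among the 3 genes nearest to *Ccnb2*, *Ccnd3*, *Ccne2* or *Cdk4*.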

How the data were processed

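Total RNA of mouse hearts was measured on 36 arrays, 3 for each of 12 stages. The authors deposited log2 values after robust multi-array averaging (background subtraction, quantile normalization, probe summary). The submitters' processing notes name Affymetrix Expression Console and Partek 6.6, whereas the paper's methods name R/Bioconductor, and which made the values was not stated. They were used as deposited. Precision is limited by 3 arrays a stage. Litters were not given, so p-values measure the spread between these arrays.

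Members and lists were chosen with earlier results of these data known. Symbols follow the gene identifier in RefSeq (GRCm38.p6), in which 18342 of 20701 identifiers were found, and 6937 probe sets have none. A gene was read from its probe set with the highest mean. Stages were compared in limma 3.58.1 (R 4.3.3): 1 model of 12 stage means on all probe sets, Benjamini-Hochberg adjustment over all 45101. DEGs had an adjusted p under 1e-05, a log2 difference above 2 and 1 or more stage means above 5. Sex was tested over 9 pairs, E13.5 and later, blocked by stage. Pairs of members were compared by exact permutation tests (Python 3.11.15), adjusted over 12. Named were all members, of each list the 2 highest and 2 lowest called genes or those against its majority, and 3 similar genes for each member spanning over 2. Both tests were tested on simulated data. Alternatives covered normalization, filters, probe set choice, covariates and leaving out each array. The choice of the brightest probe set without suffix _x_at was added after seeing the data.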

Additional observations from a re-analysis of the deposited data

How the results depend on the processing

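The 3 members called between E19.5 and young adult stayed called when any 1 array was left out, and the count at E10.5 over young adult was then 5 or 6. Other alternatives did end calls. At E19.5 over young adult *Ccnb2* lost its call with the hybridization control level (1.91) or only the compared arrays (adjusted p = 1.1e-05, limma). At E10.5 over young adult *Ccnd3* lost it under the alternatives given above, *Cdk4* with the hybridization control level (1.83) and *Ccne2* at an expression limit of 6. The count between E10.5 and E19.5, 3 as reported, was 1 after a second quantile normalization, with the hybridization control level or with title form as covariate, 0 with centred arrays or only the compared arrays, 5 with the probe set of largest variance or the brightest not ending in _x_at, 6 at a log2 limit of 1, and 2 to 4 without 1 array. Between E10.5 and E11.5, 1 as reported, it was 2 with the filter before the model, the probe set of largest variance or that without _x_at, 0 at an expression limit of 6, 4 with the mean of all probe sets, and 0 to 3 without 1 array. With the mf number as replicate block it was 0. Same-numbered arrays of these stages did not deviate together (r = 0.22, -0.25 and 0.17), so the numbers are not taken as a pairing. Arrays of the same sex label did not deviate together between E19.5 and young adult (r = 0.19, 0.016 and 0.082) but mostly did within the late embryo (E17.5 and E18.5: 0.60, 0.10 and 0.56, E17.5 and E19.5: 0.44, 0.23 and 0.40, E18.5 and E19.5: 0.57, -0.0023 and 0.49), so the 9 late arrays of the pair tests may not be fully exchangeable. The block by sex label left the counts at E19.5 over young adult (3) and old over young adult (0). Between E10.5 and E15.5, 7 as reported, it was 4 with the hybridization control level and 7 without any 1 array. *Ccnd2* did not pass there in limma after a second quantile normalization (0.22, adjusted p = 0.22) or centring (0.29, adjusted p = 0.073). Old against young adult gave 1 member instead of 0 after a second quantile normalization, centring, the hybridization control level, the mean of probe sets or the probe set without _x_at, and 0 without any 1 array. Sex gave 0 and its interaction 0 to 1 without 1 array, the 1 being *Ccnd1* without the young adult male or female array.

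Some directions turned. *Ccnd3*, E10.5 minus young adult, was -0.34 with the hybridization control level. *Ccne1*, E10.5 minus E11.5, was 1.04 with the probe set of largest variance or that without _x_at and 0.51 with the mean of probe sets. With the probe set of largest variance, the mean of probe sets and the probe set without _x_at, in this order, *Ccnd2* minus *Ccnd3* was 0.33, 0.91 and 0.001 from early to late embryo and -1.32, -0.48 and -0.42 after it, and *Ccnd1* minus *Ccnd2* after E19.5 was 0.51, -0.11 and 0.23. *Ccne1* minus *Ccne2* in the embryo was 0.46, -0.21 and 0.46. *Ccnd1* minus *Ccnd3* was -0.21 in the embryo with the mean of probe sets, and -0.81 (largest variance) and -0.58 (mean) after it. Without 1 array the pair differences ran, early to late embryo and then late embryo to mature, from -0.75 to -0.66 and -0.63 to -0.49 (*Ccnd1*, *Ccnd2*), -1.56 to -1.38 and -0.29 to -0.10 (*Ccnd1*, *Ccnd3*), -0.87 to -0.70 and 0.27 to 0.46 (*Ccnd2*, *Ccnd3*; adjusted p = 0.050, exact permutation, without E19.5 replicate 2), -1.002 to -0.75 and -0.97 to -0.79 (*Ccne1*, *Ccne2*), -1.53 to -1.38 and -2.01 to -1.74 (*Ccnb1*, *Ccnb2*), and -0.76 to -0.68 and 2.27 to 2.54 (*Cdk1*, *Cdk4*). Where probe sets of a gene disagree, which of them follows the transcript was not tested. The title form of the arrays changes at E16.5 and would coincide with late stages if it marks a batch, and 3 arrays a stage limit what the daily steps can show.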
